A study of Homo sapiens with 30 samples.

Results

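HCT116 and SW480, both established human colorectal cancer lines, were compared at baseline as unsorted cells. All 3 libraries titled HCT116-unsorted and all 3 titled SW480-unsorted were used, which is 6 of the 30 samples of a study of SETDB1 depletion in colorectal cancer lines. Every gene entered the comparison: counts of entries repeating a symbol were summed, leaving 24462 symbols, of which 14851 passed the filter on low counts and were tested. The remaining 9611 symbols were not tested, 7692 symbols having no read in any of the 6 libraries. The labels name the line of each unsorted library but neither a hairpin nor a medium. The treatment protocol, shared by all samples, describes puromycin selection after retroviral transduction and then a differentiation medium with troglitazone, an activator of PPARG, and 1α,25-dihydroxyvitamin D3, which activates VDR. Whether the unsorted cells of either line received any of these is not stated. It is also not stated whether the 3 libraries of a line came from separate cultures, so p-values measure the spread between these libraries, which may be technical.

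Wnt signalling stabilises β-catenin, which joins TCF and LEF factors to switch on genes of the intestinal crypt. APC is part of the complex that destroys β-catenin, and colorectal tumours commonly lose that control. HCT116 carries an activating CTNNB1 (β-catenin) mutation, and SW480 carries a truncated APC. As lines, each stands for 1 tumour, so a difference between them holds for this pair of lines and cannot be read as the effect of any 1 of these mutations.

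The libraries were 3′ tag libraries, in which reads come from the 3′ end of transcripts. HCT116 libraries held 6284241, 7130812 and 5349737 counts, and SW480 libraries 6915326, 8435897 and 9162875 counts. Spearman correlations over all symbols lay between 0.914 and 0.926 among HCT116 libraries, between 0.899 and 0.915 among SW480 libraries, and between 0.841 and 0.876 across lines. The median coefficient of variation of genes at 10 or more CPM (counts per 1e6 reads of a library, after TMM scaling) was 31.7% in HCT116 and 30.5% in SW480. All 8 epithelial markers checked were counted in both lines, their summed level lying between 1369 and 1977 CPM in HCT116 libraries and between 3717 and 4485 CPM in SW480 libraries. Leukocyte markers summed to between 6.20 and 17.0 CPM in HCT116 and to at most 3.90 CPM in SW480, and 3 of 8 in HCT116 and 6 of 8 in SW480 were at 0. Of 8 fibroblast markers 5 were counted in each line, with sums between 30.6 and 54.2 CPM in HCT116 and between 4.32 and 65.5 CPM in SW480. Endothelial markers summed to at most 8.76 CPM in HCT116 and 6.74 CPM in SW480, and erythroid markers to at most 2.07 CPM in HCT116 and 9.46 CPM in SW480. Libraries also differed in how expression followed the GC content of transcripts. The slope of log CPM on GC content lay below the middle of its line's range in HCT116 replicates 1 and 2 and SW480 replicate 2 (the AT class), and above it in HCT116 replicate 3 and SW480 replicates 1 and 3 (the GC class).

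The lines differed in 1532 of the 14851 tested genes, or 10.3%, by edgeR's quasi-likelihood test at a Benjamini-Hochberg adjusted p under 0.05. HCT116 had higher expression of 713 genes (4.8% of those tested) and lower expression of 819 genes (5.51%). A log2 fold change, HCT116 over SW480, of at least 1 in size was estimated for 644 of the higher and 753 of the lower genes. The median log2 fold change over all tested genes was 0.03. At an unadjusted p under 0.05 the count was 3547 genes, and the 3 HCT116 and 3 SW480 values lay apart without overlap in 4755 genes (32.0%), 2395 with HCT116 above (16.1%) and 2360 with SW480 above (15.9%). In such bulk samples a change in the number of cells of a type and in the RNA per cell cannot be told apart. The called genes also differed in GC content. Its median in transcripts was 45.0% for genes higher in HCT116, 51.5% for genes lower in HCT116 and 48.9% for the uncalled rest. With the GC class of each library as a term in the fit, 854 genes were higher and 909 lower, and 674 of the 713 and 778 of the 819 original calls were among them. All 177 called genes named here and in the closing section kept their sign within both classes. The classes were set within each line, so they do not match the slope between lines. Per 10 points of GC content, the AT class had log2 slopes of -0.289 and -0.187 in HCT116 against -0.016 in SW480. The GC class had 0.127 in HCT116 against 0.29 and 0.269 in SW480. Kept calls and signs therefore cannot show that the line difference is free of GC content.

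**Figure D1:**
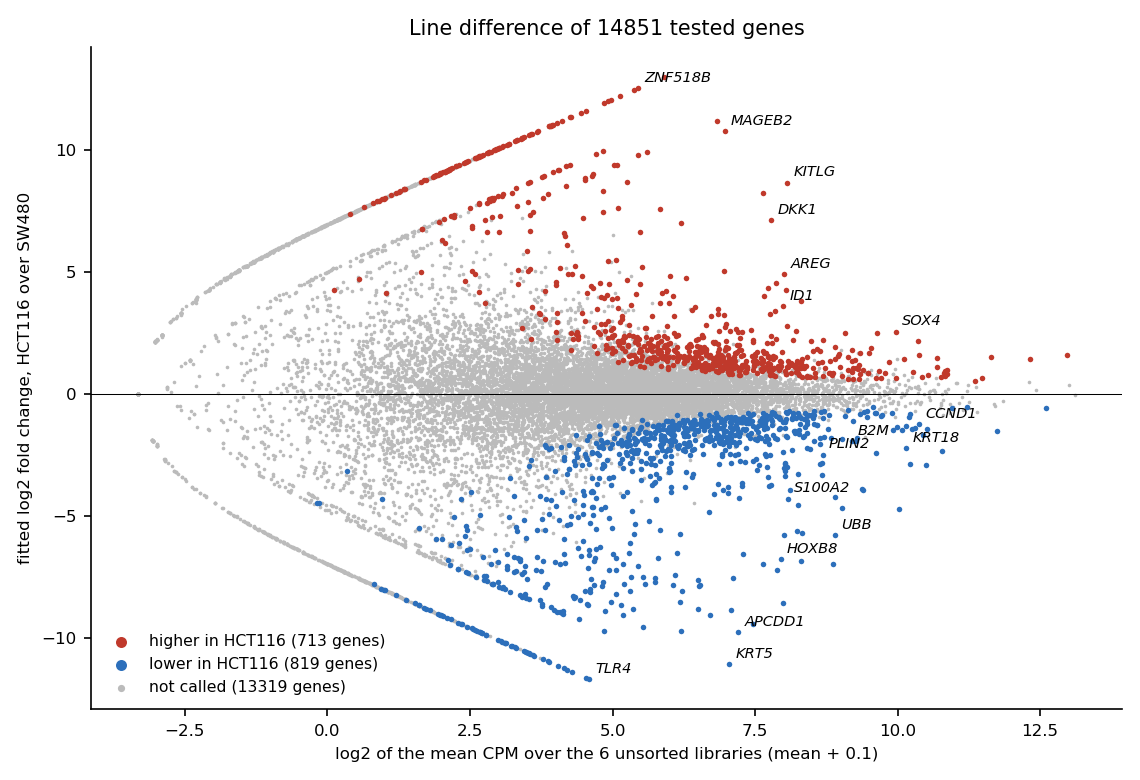
Fitted log2 fold change of HCT116 over SW480 (vertical axis) against the log2 mean CPM of the 6 unsorted libraries (horizontal axis, 0.1 added) for every tested gene. The 713 red genes were called higher in HCT116 and the 819 blue genes lower; the arcs at the left edges hold genes with no or very few reads in 1 line, whose fitted values depend on the prior count and are no bounds.

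Many calls were on or off. No read in any SW480 library was found for 102 of the higher genes, and no read in any HCT116 library for 59 of the lower genes. Where a line had no read, the fold below is set against a floor of 3 counts over its 3 libraries. This is about the 1-sided 95% Poisson limit of a count of 0 and no hard maximum, so "at least" holds only at that limit. That floor was 0.160 CPM in HCT116 and 0.122 CPM in SW480, and it covers counting error only. Among the 12 genes per direction with the largest fitted change, ZNF518B, a zinc finger gene, had 66.6, 111 and 83.7 CPM in HCT116, against 0 CPM in all 3 SW480 libraries, at least 711-fold higher (adjusted p = 1.14e-07). NLRP2, an inflammasome-related gene, had 69.3, 44.3 and 67.1 CPM in HCT116, against 0 CPM in all 3 SW480 libraries, at least 492-fold higher (adjusted p = 7.62e-07). HDHD1, on the X chromosome, had 49.7, 43.3 and 80.2 CPM in HCT116, against 0 CPM in all 3 SW480 libraries, at least 472-fold higher (adjusted p = 6.67e-07). All 3 genes lay apart from SW480 in every library of the comparison. GTSF1, a gene of the germline piRNA pathway, was at least 311-fold higher, CNN3 (calponin 3) at least 977-fold, TMSB15A (a thymosin) at least 674-fold, SH3BGRL at least 354-fold and FAM198B at least 569-fold. NR5A2, a nuclear receptor, and SSTR5, a somatostatin receptor, were at least 315-fold and 279.7-fold higher. NR5A2 lost its call without HCT116 replicate 2 or any SW480 library (adjusted p between 0.0548 and 0.0738), with its fitted log2 fold change between 10.96 and 11.63 in the 6 fits that left out 1 library. SSTR5 lost its call without any 1 of the 6 (between 0.0594 and 0.1), with its fitted value between 11.09 and 11.31.

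On the SW480 side, TLR4, the lipopolysaccharide receptor, had 0 CPM in all 3 HCT116 libraries, against 44.7, 53.6 and 45.1 CPM in SW480, at least 299-fold lower in HCT116 (adjusted p = 4.79e-06). GLS2, the liver-type glutaminase, had 0 CPM in all 3 HCT116 libraries, against 36.3, 28.98 and 41.2 CPM in SW480, at least 222-fold lower (adjusted p = 0.000363). No read of either gene was found in HCT116, while SW480 libraries stayed within a narrow range. CST7 (cystatin F) was at least 289-fold lower, CGREF1 at least 204-fold, HPDL at least 183-fold, ATP6V0A4 (a proton pump subunit) at least 146-fold and the noncoding LINC01605 at least 151-fold. TNFSF10, which encodes the death ligand TRAIL, and PLBD1 were at least 228-fold and 170.1-fold lower. Without HCT116 replicate 1 the adjusted p of TNFSF10 was 0.0501 and that of PLBD1 0.0504, just short of a call. Of the genes named here and below as higher or lower, each kept its call without each of the 6 libraries in turn unless stated.

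CTNNB1 mRNA was lower in HCT116, with 695, 853 and 871 CPM in HCT116, against 1523, 1537 and 1593 CPM in SW480 (log2 fold change -0.94 ± 0.18, adjusted p = 0.00104). POLD2, a subunit of DNA polymerase δ, was lower too (log2 fold change -1.09 ± 0.28, adjusted p = 0.0138), though not without SW480 replicate 3 (adjusted p = 0.0697). SETDB1, the histone H3K9 methyltransferase that the study depletes in other samples, was not called: it had 71.01, 69.4 and 16.3 CPM in HCT116, against 36.9, 36.3 and 15.3 CPM in SW480, groups that overlapped (log2 fold change 0.83 ± 1.70, adjusted p = 0.843).

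MDM2, a ubiquitin ligase, had 227, 231 and 164 CPM in HCT116, against 45.2, 85.8 and 84.3 CPM in SW480 (log2 fold change 1.53 ± 0.32, adjusted p = 0.00255). POLH, a translesion polymerase, had 216, 212 and 265 CPM in HCT116, against 31.8, 78.5 and 62.8 CPM in SW480 (log2 fold change 1.999 ± 0.42, adjusted p = 0.0027), and the stress kinase gene PLK2 had 168, 178 and 127 CPM in HCT116, against 58.8, 37.02 and 58.2 CPM in SW480 (log2 fold change 1.62 ± 0.26, adjusted p = 0.000238). None of these 3 genes overlapped between lines. PLK3, a related kinase gene, and BBC3, the proapoptotic PUMA, were higher too (log2 fold change 2.86 ± 0.63 and 1.31 ± 0.31, adjusted p = 0.00425 and 0.00717). FBXW7, a ubiquitin ligase subunit, was higher (log2 fold change 1.499 ± 0.36, adjusted p = 0.00803) but not without HCT116 replicate 2 (adjusted p = 0.0917). RPS27L, a ribosomal protein gene, was higher with 185, 203 and 174 CPM in HCT116, against 37.8, 35.6 and 60.2 CPM in SW480 (log2 fold change 2.07 ± 0.39, adjusted p = 0.000977). CDKN1A, the p21 cell cycle inhibitor, had 186, 251 and 306 CPM in HCT116, against 147, 155 and 157 CPM in SW480; its groups did not overlap, but it was not called in the unsorted cells (log2 fold change 0.70 ± 0.24, adjusted p = 0.0743) except with DESeq2 or a GC term. FUCA1, a lysosomal fucosidase, ran the other way with 43.9, 23.4 and 26.6 CPM in HCT116, against 159.7, 89.1 and 148 CPM in SW480 (log2 fold change -2.08 ± 0.29, adjusted p = 4.24e-05), as did the growth inhibitor gene PHLDA3 (log2 fold change -1.73 ± 0.45, adjusted p = 0.0176), which lost its call without HCT116 replicate 1 or 2 or SW480 replicate 1 (adjusted p between 0.0899 and 0.102).

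Called Wnt targets and feedback genes were mostly lower in HCT116. Of 22 tested members 11 were lower and 2 higher, and the median log2 fold change of the tested members was -2.25. Over all tested genes 5.51% were lower and 4.8% higher. Members near 0 in HCT116, such as LEF1, could pass the low-count filter only through SW480 libraries, so the shares cannot be compared. APCDD1, a membrane inhibitor of Wnt signalling, had 0, 0.704 and 0.207 CPM in HCT116, against 269, 309 and 307 CPM in SW480 (log2 fold change -9.77 ± 0.68, adjusted p = 1.86e-09). ASCL2, a transcription factor of intestinal stem cells, had 0, 0.563 and 1.24 CPM in HCT116, against 337, 209.7 and 258 CPM in SW480 (log2 fold change -8.86 ± 0.69, adjusted p = 1.1e-08). PROX1, a homeobox gene switched on by β-catenin in colorectal tumours, had 0, 1.13 and 0.413 CPM in HCT116, against 119, 183 and 140.2 CPM in SW480 (log2 fold change -8.07 ± 0.86, adjusted p = 8.15e-07). These 3 genes were close to 0 in every HCT116 library and above 100 CPM in every SW480 library. SP5, a zinc finger repressor induced by Wnt, had 11.8, 30.96 and 19.8 CPM in HCT116, against 300.4, 264 and 297 CPM in SW480 (log2 fold change -3.78 ± 0.46, adjusted p = 5.73e-06). The feedback inhibitors NKD1, ZNRF3 and AXIN2 were lower as well (log2 fold change -4.57 ± 0.97, -2.47 ± 0.48 and -3.64 ± 0.84, adjusted p = 0.00645, 0.00147 and 0.00979). AXIN2 lost its call without HCT116 replicate 1 or 3 (adjusted p up to 0.0709). Of the β-catenin partners, TCF7 was lower (log2 fold change -2.46 ± 0.58, adjusted p = 0.00973), though not without HCT116 replicate 3 (adjusted p = 0.0565). LEF1 had 2 counts in all in HCT116 and a ratio of SW480 to HCT116 of 92.04 (counting interval 27.9 to 845, adjusted p = 0.0134), lost without HCT116 replicate 1 or 2 (adjusted p up to 0.0669). SOX9, a crypt transcription factor, and CCND1 (cyclin D1) were lower by smaller amounts (-1.34 and -1.23, adjusted p = 0.00529 and 1.75e-05).

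DKK1, a secreted inhibitor of Wnt receptors, went the opposite way. It had 581, 325 and 402 CPM in HCT116, against 1.85, 7.33 and 0 CPM in SW480 (log2 fold change 7.14 ± 1.12, adjusted p = 0.000497), with no overlap. BMP4, a BMP ligand on this list, was higher by 0.96 on the log2 scale (adjusted p = 0.0261), a call lost without HCT116 replicate 1 or 2 or any SW480 library (adjusted p between 0.0702 and 0.106). Of 17 tested members of the β-catenin destruction and transcription complexes 1 was higher and 2 were lower, against 4.8% and 5.51% of all tested genes. TCF7L2, the main TCF factor of the gut, was higher with 212, 151 and 171 CPM in HCT116, against 62.8, 15.5 and 45.1 CPM in SW480 (log2 fold change 2.11 ± 0.43, adjusted p = 0.00208). CTNNB1 and BCL9L, a coactivator, were lower; the BCL9L call (log2 fold change -0.95 ± 0.24, adjusted p = 0.0124) was lost without HCT116 replicate 1 or SW480 replicate 3 (adjusted p 0.0618 and 0.0727).

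The promoters of SP5 and DKK1 are shown because these Wnt-linked genes moved in opposite directions and both carry TCF/LEF core motifs, CTTTGA or CTTTGT on either strand (TCAAAG and ACAAAG on the other), which are set in capitals. SP5 (chr2:170715351-170718078, GRCh38) is given at chr2:170715087-170715386, plus strand, and DKK1 at chr10:52314031-52314330, plus strand. Both windows come from RefSeq, build GRCh38.p14, and hold the 250 bases before the RefSeq start of the gene and the 50 bases from it on; that start lies a few bases upstream of the GENCODE start printed for SP5.
SP5: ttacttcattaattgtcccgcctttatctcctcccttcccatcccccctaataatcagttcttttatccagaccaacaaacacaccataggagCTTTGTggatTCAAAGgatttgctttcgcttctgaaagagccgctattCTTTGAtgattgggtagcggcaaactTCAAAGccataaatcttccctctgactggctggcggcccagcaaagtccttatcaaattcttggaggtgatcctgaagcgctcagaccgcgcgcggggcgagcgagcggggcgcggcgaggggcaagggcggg
DKK1: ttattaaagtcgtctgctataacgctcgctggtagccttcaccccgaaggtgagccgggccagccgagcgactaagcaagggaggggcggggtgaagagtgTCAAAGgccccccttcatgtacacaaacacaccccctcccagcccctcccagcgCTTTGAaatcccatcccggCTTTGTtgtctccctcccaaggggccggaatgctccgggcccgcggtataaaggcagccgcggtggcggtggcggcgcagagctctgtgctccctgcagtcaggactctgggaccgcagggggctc
SP5 held 4 matches and DKK1 held 3. Over all 35116 promoters of the RefSeq set, 26.2% held at least 1 match, 0.886% held 3 or more and 0.111% held 4 or more. Both promoters were chosen for holding matches, so their counts cannot be set against these shares. Of the 28 listed Wnt genes 16 had a promoter in the set, and 6 of these held a match in any of their promoters. That count is per gene and cannot be set against the 26.2%, which is per promoter. A match describes the letters only, and the same motif stood before a gene that was higher and a gene that was lower in HCT116.

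**Figure D2:**
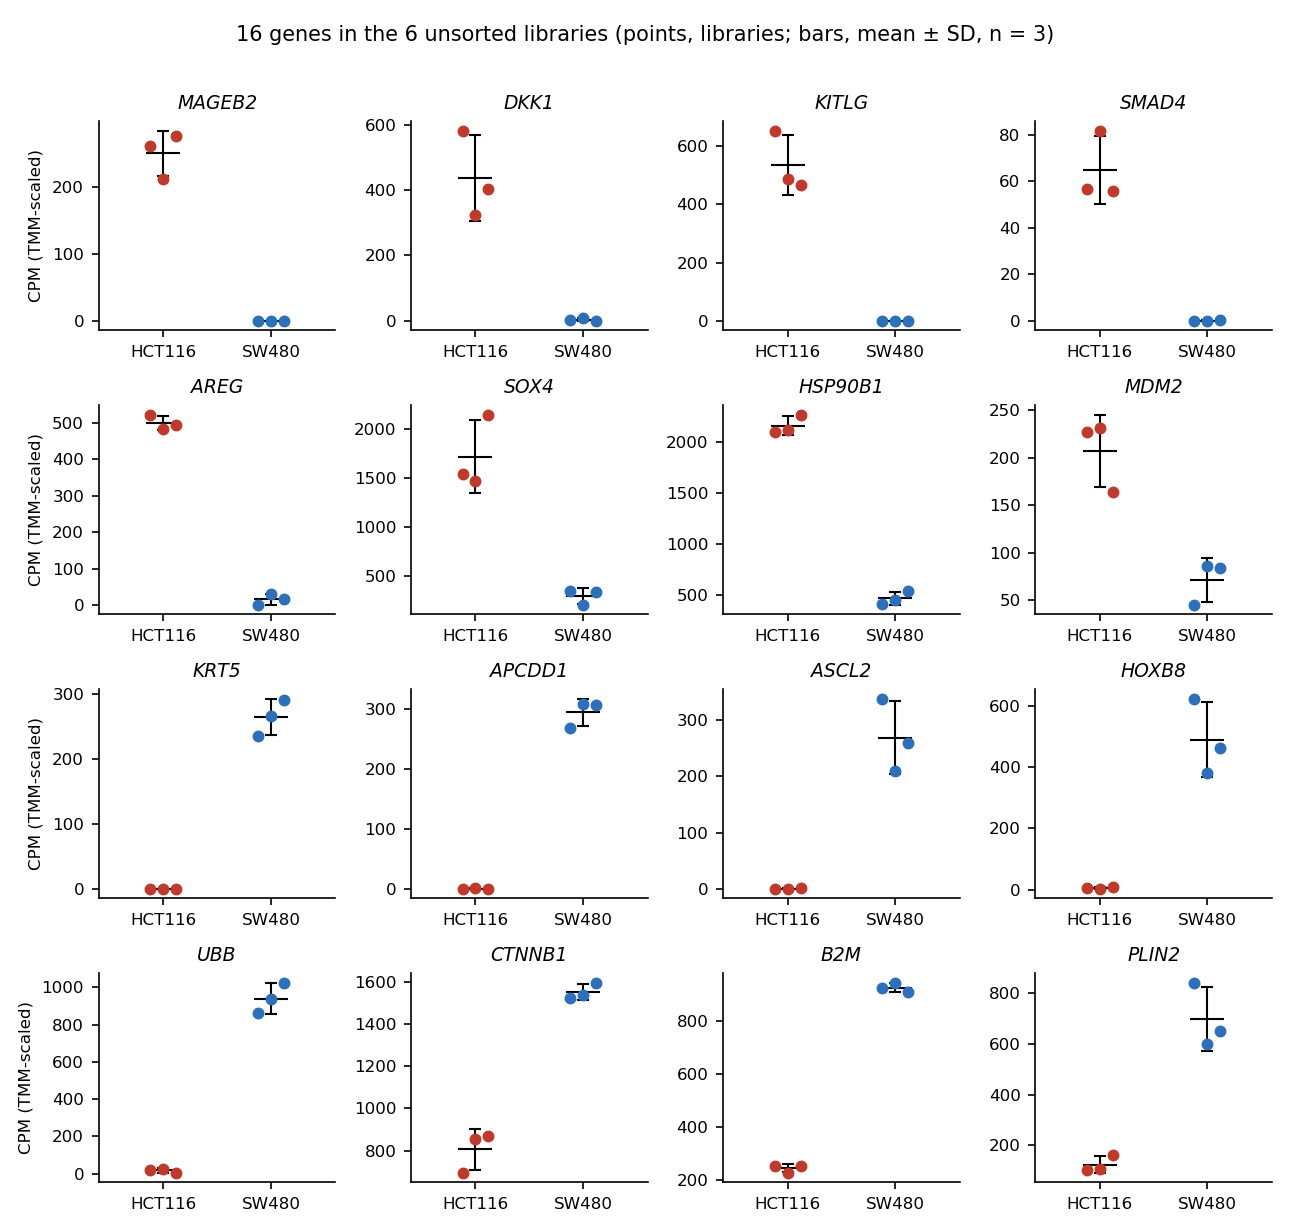
CPM (vertical axes, each gene on its own scale) of 16 genes in the 3 HCT116 and 3 SW480 unsorted libraries (points), with mean and SD (bars, n = 3). The 8 genes of the upper panels, from MAGEB2 to MDM2, were higher in all 3 HCT116 libraries, and the 8 lower ones, from KRT5 to PLIN2, were lower in all 3.

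Keratins, the intermediate filaments of epithelia, were lower in HCT116 without exception among called members. Of 14 tested 7 were lower and 0 higher (median log2 fold change -2.25). Over all tested genes 5.51% were lower and 4.8% higher. Members near 0 in HCT116, such as KRT5, could pass the low-count filter only through SW480 libraries, so the shares cannot be compared. KRT5, a keratin of basal stratified epithelium (chr12:52514575-52520687, GRCh38), was nearly private to SW480, with 0, 0.281 and 0 CPM in HCT116, against 235, 267 and 292 CPM in SW480; the ratio of SW480 to HCT116 was 2820.4 with a counting interval of 679.5 to 20281 (adjusted p = 2.26e-09). KRT18, of simple epithelia, had 297, 385 and 534 CPM in HCT116, against 2162, 1581 and 1885 CPM in SW480 (log2 fold change -2.21 ± 0.22, adjusted p = 4.34e-07). Its filament partner KRT8 had 82.2, 85.6 and 119 CPM in HCT116, against 456, 419 and 537 CPM in SW480 (log2 fold change -2.30 ± 0.29, adjusted p = 1.11e-05). All 3 keratins kept the 2 lines apart in each of the 18 libraries that include the sorted cells. KRT81, a hair keratin, was lower (log2 fold change -7.81 ± 1.02, adjusted p = 2.75e-05), as was KRT23 (log2 fold change -6.52 ± 1.10, adjusted p = 0.000625). KRT13 had 3 counts in all in HCT116 and a ratio of SW480 to HCT116 of 436 (counting interval 148 to 2098, adjusted p = 0.000157). KRT19 was lower by a smaller amount (log2 fold change -0.92 ± 0.28, adjusted p = 0.0375), a call lost without HCT116 replicate 1 or 2 or any SW480 library (adjusted p between 0.0642 and 0.158). KRT20, the keratin of differentiated colonocytes, was near the detection limit in both lines: 6 counts in all in HCT116 and 0 in SW480 (adjusted p = 0.26).

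Adhesion and junction genes split almost evenly, 6 higher and 7 lower of 39 tested, against 4.8% and 5.51% of all tested genes. HCT116 had the desmosomal cadherins: DSC2 had 109.7, 72.2 and 60.1 CPM in HCT116, against 1.23, 4.73 and 7.63 CPM in SW480 (log2 fold change 4.12 ± 0.43, adjusted p = 7.28e-07). DSG2 was higher by 1.57 ± 0.35 on the log2 scale (adjusted p = 0.00444). GRHL2, a transcription factor of epithelial identity, had 11.8, 17.7 and 14.3 CPM in HCT116, against 0, 0.118 and 0 CPM in SW480, a ratio of 370.0 with a counting interval of 62.5 to 13931 (adjusted p = 9.17e-05). PRSS8 (prostasin) had 6.21, 24.6 and 7.44 CPM in HCT116, against 0 CPM in all 3 SW480 libraries, at least 104-fold higher (adjusted p = 0.00233), and OVOL1, another epithelial transcription factor, was at least 134-fold higher (adjusted p = 0.0113). RAB25, a GTPase of epithelial recycling, was higher too (adjusted p = 0.00962). EPCAM was lower with 239.9, 180.1 and 209 CPM in HCT116, against 325, 331 and 347 CPM in SW480 (log2 fold change -0.67 ± 0.21, adjusted p = 0.0422), and leaving out any 1 library lost that call (adjusted p between 0.0566 and 0.161), as did no low-count filter and a fit of only the 6 libraries. CDH1, or E-cadherin, had 69.9, 41.4 and 70.03 CPM in HCT116, against 108, 101 and 99.6 CPM in SW480, no overlap and no call (log2 fold change -0.77 ± 0.25, adjusted p = 0.0551), although library totals, DESeq2, a replicate block and a GC term each gave one.

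Of 33 tested mesenchymal genes 1 was higher and 3 were lower, against 4.8% and 5.51% of all tested genes. TPM2, a tropomyosin of contractile fibres, had 149, 133 and 92.3 CPM in HCT116, against 8.95, 4.61 and 9.403 CPM in SW480 (log2 fold change 4.03 ± 0.69, adjusted p = 0.000457). GNG11, a G protein subunit, had 0, 0.422 and 1.24 CPM in HCT116, against 21.6, 20.7 and 9.73 CPM in SW480 (log2 fold change -5.03 ± 0.72, adjusted p = 7.53e-05). S100A4, a calcium-binding protein of motile cells, was lower (log2 fold change -1.42 ± 0.35, adjusted p = 0.0127) with its call lost without HCT116 replicate 1 or 2 or SW480 replicate 1 (adjusted p between 0.0594 and 0.0762). VIM, or vimentin, had 23.4, 43.8 and 11.6 CPM in HCT116, against 99.2, 143 and 84.6 CPM in SW480: every HCT116 library was below every SW480 library, but the joint fit gave no call (log2 fold change -2.05 ± 1.05, adjusted p = 0.252). A fit of the 6 unsorted libraries alone did call VIM.

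Of 23 tested intestinal transcription factors 5 were lower and 1 higher, against 5.51% and 4.8% of all tested genes. CDX2, the caudal homeobox factor that sets hindgut identity, had 64.3, 72.2 and 161 CPM in HCT116, against 353, 188 and 255 CPM in SW480 (log2 fold change -1.42 ± 0.37, adjusted p = 0.0145), a call lost without HCT116 replicate 1 or 2 or SW480 replicate 1 (adjusted p between 0.0768 and 0.0903). KLF5, a crypt Krüppel-like factor, had 19.1, 30.3 and 9.503 CPM in HCT116, against 64.3, 70.4 and 79.3 CPM in SW480 (log2 fold change -1.86 ± 0.40, adjusted p = 0.00378). EHF, an ETS factor of epithelia, was lower (log2 fold change -4.14 ± 1.20, adjusted p = 0.0288) but not without HCT116 replicate 1 or 3 or SW480 replicate 1 or 3 (adjusted p between 0.068 and 0.0924), nor with only the 6 libraries in the fit. SOX4, a progenitor factor, was the member higher in HCT116, with 1539, 1464 and 2142 CPM in HCT116, against 340.3, 200.028 and 329.9 CPM in SW480 (log2 fold change 2.56 ± 0.27, adjusted p = 6.57e-07).

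HOX genes, which mark position along the body axis, were lower in HCT116 wherever they were called. Of 33 tested 8 were lower and 0 higher, against 5.51% and 4.8% of all tested genes, and the median log2 fold change was -1.40. A member near 0 in HCT116, such as HOXB2, could pass the low-count filter only through SW480 libraries, so the shares are not strictly comparable. Of these 8, 7 belong to the HOXB cluster on chromosome 17 and 1, HOXA7, to the HOXA cluster on chromosome 7. HOXB8 (chr17:48611377-48614939, GRCh38) had 3.98, 2.39 and 7.23 CPM in HCT116, against 624, 382 and 465 CPM in SW480 (log2 fold change -6.78 ± 0.88, adjusted p = 6.83e-05). HOXB9 had 23.4, 36.6 and 54.5 CPM in HCT116, against 458, 230.0 and 316 CPM in SW480 (log2 fold change -3.13 ± 0.40, adjusted p = 9.25e-06). HOXB4 had 15.1, 13.6 and 12.8 CPM in HCT116, against 90.9, 121 and 128 CPM in SW480 (log2 fold change -3.03 ± 0.43, adjusted p = 5.34e-05). HOXB2 had no read in HCT116 and 28.4, 15.97 and 42.5 CPM in SW480, at least 181-fold lower (adjusted p = 0.0117). HOXB5, HOXB6 and HOXA7 had log2 fold changes of -3.18, -3.63 and -1.40 (adjusted p = 0.000237, 0.000912 and 0.0054). HOXB7 had -1.29 (adjusted p = 0.021), a call lost without HCT116 replicate 1 or 3 or SW480 replicate 2 (adjusted p up to 0.094). The antisense transcript HOXB-AS3 was at least 243-fold lower (adjusted p = 0.00619). It runs opposite to HOXB genes, and as the strand setting of the counting is not given, its reads and theirs cannot be told apart.

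Differentiated intestinal cell types were sparsely represented in both lines. Of 38 colonocyte genes 27 had no read in HCT116 and 26 none in SW480. Among the 15 tested, 3 were lower in HCT116 and 0 higher. Over all tested genes 5.51% were lower and 4.8% higher. Each of these 3 had 0 or 1 count in all in unsorted HCT116 cells and passed the low-count filter through other libraries, so the shares cannot be compared. CEACAM1, an adhesion glycoprotein, had no read in HCT116 and 2.93, 4.38 and 4.09 CPM in SW480, at least 23.8-fold lower (adjusted p = 0.0011), though not called with only the 6 libraries in the fit. HSD17B2, a steroid dehydrogenase, had 0, 0.141 and 0 CPM in HCT116, against 9.26, 10.8 and 5.75 CPM in SW480, a ratio of SW480 to HCT116 of 183 (counting interval 27.6 to 6167, adjusted p = 0.00344). CEACAM5, the carcinoembryonic antigen, rested on SW480 replicate 1, with 9.56, 0.237 and 0.221 CPM in SW480 and no read in HCT116 (adjusted p = 0.0223, and up to 0.14 with HCT116 replicate 1, 2 or 3 or SW480 replicate 1 left out). It was also not called with no filter, a replicate block or a GC term. CEACAM family members are alike in sequence, so reads may be split among them. Of 8 tested goblet genes 1 was lower and 0 higher, against 5.51% and 4.8% of all tested genes. That gene, the trefoil peptide TFF2, likewise rested on SW480 replicate 1, with 16.5, 0.355 and 0 CPM in SW480 and no read in HCT116, groups that overlapped at 0 (adjusted p = 0.0186, and up to 0.258 without HCT116 replicate 1, 2 or 3 or SW480 replicate 1). A replicate block did not call it either, and DESeq2 gave no adjusted p.

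Secretory and neuroendocrine genes gave 4 lower and 1 higher of 15 tested. Over all tested genes 5.51% were lower and 4.8% higher. Members near 0 in HCT116, such as SCG3, could pass the low-count filter only through SW480 libraries, so the shares cannot be compared. CPE, the carboxypeptidase that trims peptide hormones, had 87.3, 78.1 and 63.01 CPM in HCT116, against 0.309, 0.118 and 0.111 CPM in SW480 (log2 fold change 8.69 ± 0.92, adjusted p = 8.15e-07). SCG3, a secretogranin of hormone granules, ran the other way with 0, 0.141 and 0 CPM in HCT116, against 9.56, 20.8 and 9.07 CPM in SW480, 1 count in all in HCT116 and a ratio of SW480 to HCT116 of 280.4 (counting interval 43.6 to 9705, adjusted p = 0.00473). Chromogranin A (CHGA), the granule protein PCSK1N and the eye and islet factor PAX6 were lower with adjusted p = 0.0333, 0.0293 and 0.0494. PAX6 lost its call without any 1 library (adjusted p up to 0.168), PCSK1N without any but SW480 replicate 2 (up to 0.097), both also with a replicate block, and CHGA without any but HCT116 replicate 3 (up to 0.125). Of 6 tested tuft and Paneth cell genes 2 were lower and 0 higher, against 5.51% and 4.8% of all tested genes. DCLK1, a tuft cell kinase, was lower with 0, 1.55 and 2.07 CPM in HCT116, against 56.8, 41.3 and 43.9 CPM in SW480 (log2 fold change -5.30 ± 1.08, adjusted p = 0.00217). The Paneth cell defensin DEFA5 had no read in HCT116 and 4.47, 17.7 and 7.96 CPM in SW480 (adjusted p = 0.0245, lost without any 1 HCT116 library, up to 0.0826).

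MAPK output genes, growth factors among them, gave 6 higher and 3 lower of 30 tested, against 4.8% and 5.51% of all tested genes. AREG, which encodes an EGF receptor ligand, had 522, 483 and 494 CPM in HCT116, against 0.617, 29.8 and 18.03 CPM in SW480 (log2 fold change 4.94 ± 0.74, adjusted p = 0.000399). Its neighbour EREG, another ligand of that receptor, had 359.8, 232 and 134 CPM in HCT116, against 0, 10.6 and 10.95 CPM in SW480 (log2 fold change 5.05 ± 0.85, adjusted p = 0.000681). Neither gene overlapped between lines. PHLDA2 had 458, 531 and 513 CPM in HCT116, against 159, 195 and 176 CPM in SW480 (log2 fold change 1.504 ± 0.21, adjusted p = 5.13e-05). DUSP4, a phosphatase that dampens ERK, KCNN4, a potassium channel, and PLAUR, the urokinase receptor, were higher by 1.56, 3.51 and 1.19 on the log2 scale (adjusted p = 0.00176, 0.00246 and 0.00551). Of 34 receptor tyrosine kinases and ligands 2 were higher and 4 lower, against 4.8% and 5.51% of all tested genes. MET, the hepatocyte growth factor receptor, had 152, 129 and 132 CPM in HCT116, against 33.9, 54.3 and 58.9 CPM in SW480 (log2 fold change 1.49 ± 0.30, adjusted p = 0.00189). The ephrins split: EFNB2 had 47.6, 32.4 and 26.4 CPM in HCT116, against 7.71, 2.01 and 8.63 CPM in SW480 (log2 fold change 2.54 ± 0.51, adjusted p = 0.00175). EFNB1 had 17.99, 9.85 and 22.5 CPM in HCT116, against 252, 174 and 214 CPM in SW480 (log2 fold change -3.67 ± 0.69, adjusted p = 0.00121). PDGFA, the platelet-derived growth factor A chain, had 61.9, 29.1 and 77.1 CPM in HCT116, against 629, 377 and 378 CPM in SW480 (log2 fold change -3.04 ± 0.34, adjusted p = 1.46e-06).

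In the TGF-β and BMP pathway 5 of 27 tested members were higher and 5 lower, against 4.8% and 5.51% of all tested genes. SMAD4, the shared effector of both branches (chr18:51028394-51085045, GRCh38), was almost silent in SW480, with 56.7, 81.8 and 55.98 CPM in HCT116, against 0, 0 and 0.221 CPM in SW480; the ratio was 879 with a counting interval of 218 to 6523 (adjusted p = 7.62e-07). ID1, a BMP-induced inhibitor of differentiation factors, had 400.3, 399 and 608 CPM in HCT116, against 45.5, 31.9 and 38.7 CPM in SW480 (log2 fold change 3.60 ± 0.33, adjusted p = 1.07e-07). ID3, of the same family, had 413, 404 and 369.8 CPM in HCT116, against 2.47, 0.237 and 1.33 CPM in SW480 (log2 fold change 8.24 ± 1.22, adjusted p = 0.000482), and DESeq2 gave no adjusted p. ID2 went the opposite way, with 51.4, 28.8 and 26.4 CPM in HCT116, against 186, 264 and 167 CPM in SW480 (log2 fold change -2.53 ± 0.54, adjusted p = 0.00295), so the 3 ID genes did not move together. LTBP1, which stores latent TGF-β in the matrix, had 17.99, 21.5 and 4.96 CPM in HCT116, against 0, 0.118 and 0 CPM in SW480, a ratio of 376 with a counting interval of 67.5 to 15015 (adjusted p = 0.000142). Among ligands, INHBB, an activin subunit, had 0, 0.704 and 0.826 CPM in HCT116, against 99.4, 122 and 97.7 CPM in SW480 (log2 fold change -7.69 ± 1.01, adjusted p = 2.3e-05). BMP7, a BMP ligand, had 3.66, 1.27 and 3.099 CPM in HCT116, against 136, 144 and 146 CPM in SW480 (log2 fold change -5.73 ± 1.17, adjusted p = 0.00355).

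Antigen presentation genes were lower in HCT116 wherever called, 6 of 26 tested and 0 higher, against 5.51% and 4.8% of all tested genes. B2M, the light chain of every class I molecule, had 251, 226 and 254 CPM in HCT116, against 927, 945 and 912 CPM in SW480 (log2 fold change -1.93 ± 0.17, adjusted p = 6.79e-08). PSMB8, a catalytic subunit of the immunoproteasome, had 0, 0.704 and 0.207 CPM in HCT116, against 95.2, 56.2 and 66.8 CPM in SW480 (log2 fold change -7.78 ± 1.08, adjusted p = 5.34e-05). HLA-C (log2 fold change -1.01 ± 0.24, adjusted p = 0.00665) lost its call without HCT116 replicate 1 (adjusted p = 0.0576), and HLA-B (log2 fold change -0.81 ± 0.21, adjusted p = 0.014) without HCT116 replicate 1 or 2 or SW480 replicate 3 (up to 0.106) or with only the 6 libraries in the fit. Class I genes are alike and highly variable between individuals, so reads may be shared or lost in alignment. Among 32 tested interferon-response genes 4 were lower and 1 higher, against the same 5.51% and 4.8%. APOL6, an apolipoprotein L gene, had 0, 0 and 0.207 CPM in HCT116, against 48.8, 29.2 and 49.6 CPM in SW480, a ratio of SW480 to HCT116 of 617 (counting interval 139 to 30597, adjusted p = 3.95e-07). IRF1, an interferon-induced transcription factor, had 32.3, 27.3 and 32.4 CPM in HCT116, against 102, 80.9 and 127 CPM in SW480 (log2 fold change -1.75 ± 0.40, adjusted p = 0.00571). IFITM2, an antiviral membrane protein, was lower (log2 fold change -1.47 ± 0.29, adjusted p = 0.00157). OASL, of the oligoadenylate synthetase family, was higher at a low level with 5.57, 6.05 and 5.99 CPM in HCT116, against 0.154, 0.355 and 0 CPM in SW480 (log2 fold change 5.01 ± 1.07, adjusted p = 0.0032), though not called with only the 6 libraries. OAS1 of the same family was lower (log2 fold change -4.30 ± 1.19, adjusted p = 0.0259) with overlapping groups and a call lost with no filter, with a replicate block and without HCT116 replicate 1 or 2 or SW480 replicate 1 or 2 (adjusted p up to 0.123).

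Of 12 tested cancer-testis genes, normally restricted to the germline, 5 were called higher in HCT116 and 0 lower. Members near 0 in SW480 could pass the low-count filter only through HCT116. Their share therefore cannot be set against that of all tested genes. MAGEB2 had 261, 212 and 276 CPM in HCT116, against 0.154, 0.118 and 0.111 CPM in SW480, a ratio of 1956 with a counting interval of 668 to 9474 (adjusted p = 1.3e-09). MAGEA3 had 66.7, 64.9 and 71.1 CPM in HCT116, against 0.154, 0.118 and 0 CPM in SW480, a ratio of 743 (counting interval 221 to 6609, adjusted p = 1.82e-05). MAGEA6 had 44.3, 62.6 and 49.2 CPM in HCT116, against 0, 0.118 and 0 CPM in SW480, a ratio of 1319 (counting interval 225 to 49638, adjusted p = 0.000205). MAGEA2 had 36.3, 23.6 and 37.2 CPM in HCT116 and no read in SW480, at least 265-fold higher (adjusted p = 9.33e-05). MAGEA2B, which was not on the list, had 73.6, 48.4 and 65.1 CPM in HCT116 and no read in SW480, at least 509-fold higher (adjusted p = 5.45e-07). Near-identical copies limit what the counts can say: the last 300 transcript bases of MAGEA3 and MAGEA6 matched at 298 positions and those of MAGEA2 and MAGEA2B at all 300 in the closest transcripts, so reads cannot be assigned between them. PRAME, a melanoma antigen gene, had 39.6, 74.2 and 82.4 CPM in HCT116, against 0.154, 0 and 3.98 CPM in SW480 (log2 fold change 5.51 ± 1.36, adjusted p = 0.0134, adjusted p = 0.064 without SW480 replicate 1). Most other members of this list had no read: 30 of 45 were at 0 in HCT116 and 31 in SW480.

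The promoters of MAGEA3 and MAGEB2 are shown with CG dinucleotides, the sites of DNA methylation, in capitals, because MAGE genes are on in one line and off in the other and are known to be controlled by promoter methylation. MAGEA3 is given at chrX:152698544-152698843 and MAGEB2 at chrX:30215313-30215612, both on the plus strand, from RefSeq build GRCh38.p14.
MAGEA3: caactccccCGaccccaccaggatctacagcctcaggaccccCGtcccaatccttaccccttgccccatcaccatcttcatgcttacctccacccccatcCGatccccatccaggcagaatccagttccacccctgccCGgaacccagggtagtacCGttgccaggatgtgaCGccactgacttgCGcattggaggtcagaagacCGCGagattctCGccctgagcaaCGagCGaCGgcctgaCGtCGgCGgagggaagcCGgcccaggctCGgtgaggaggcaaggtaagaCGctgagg
MAGEB2: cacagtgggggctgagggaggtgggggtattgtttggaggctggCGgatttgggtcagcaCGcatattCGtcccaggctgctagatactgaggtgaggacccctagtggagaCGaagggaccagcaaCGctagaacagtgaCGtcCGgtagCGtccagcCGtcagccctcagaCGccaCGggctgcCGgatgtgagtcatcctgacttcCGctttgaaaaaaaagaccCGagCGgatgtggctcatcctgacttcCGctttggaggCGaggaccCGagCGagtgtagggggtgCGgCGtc
MAGEA3 held 19 CG dinucleotides and MAGEB2 held 21, and the median over all 35116 promoters of 300 bases was 14. Both genes were chosen for their line difference, so their counts cannot be set against that median. The MAGEA6 window (chrX:152769640-152769939, minus strand) was identical to that of MAGEA3 at all 300 bases. DNA methylation was not measured in these samples, and its part in the line difference was not tested.

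**Figure D3:**
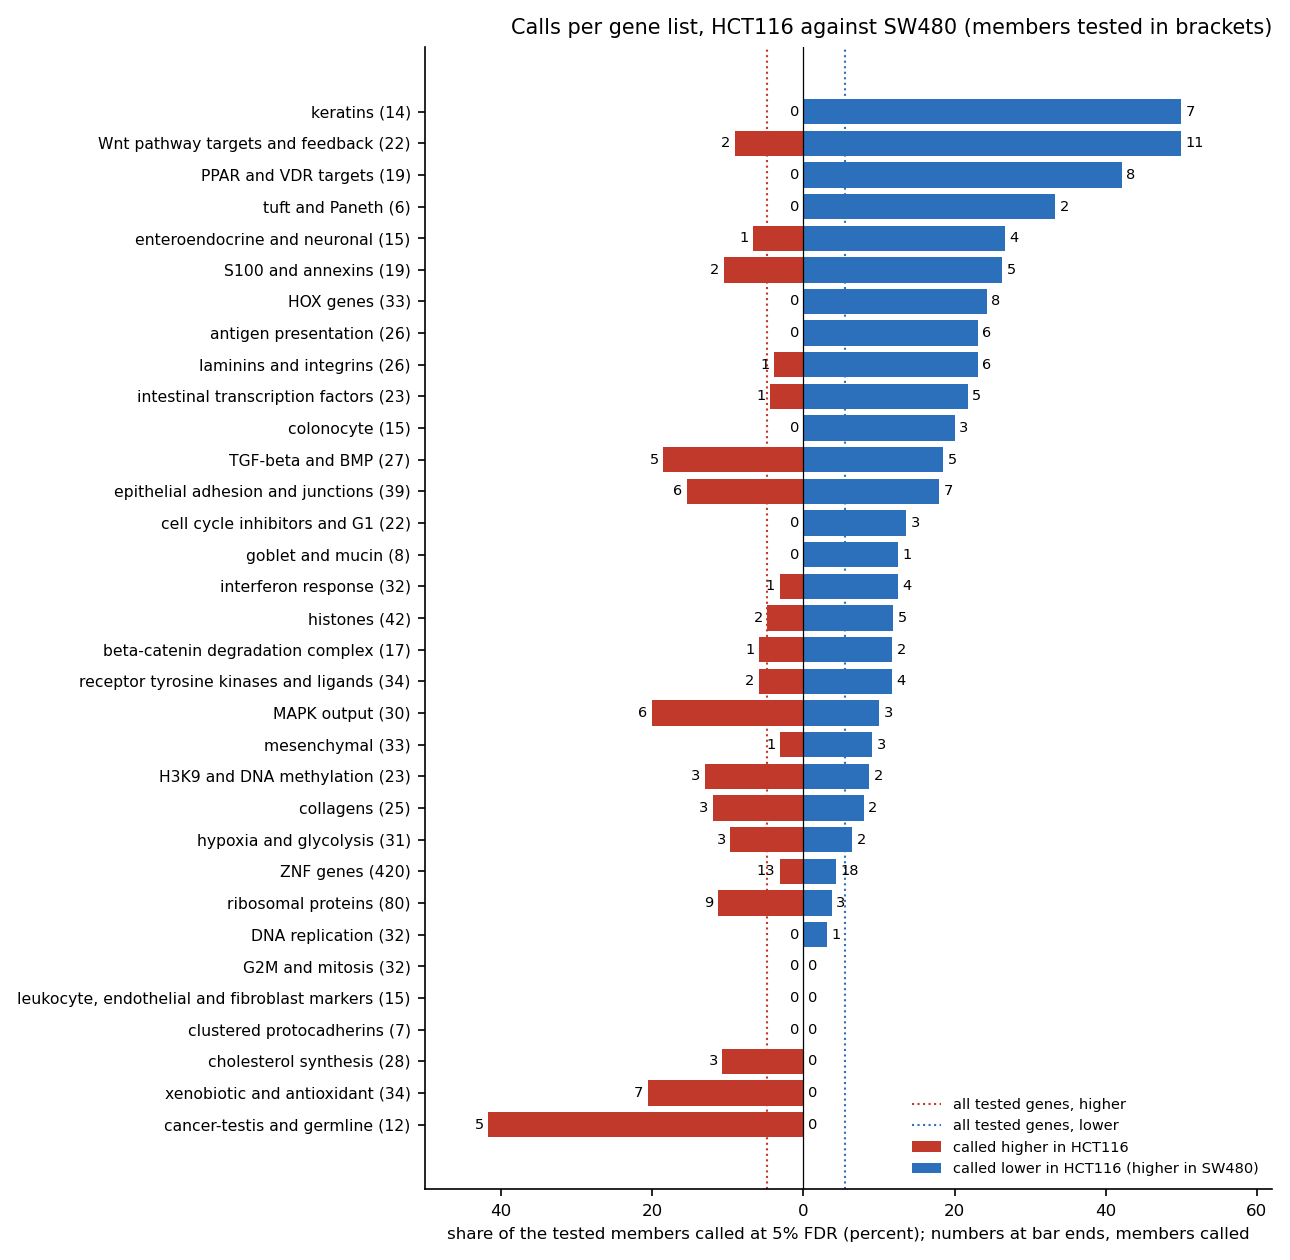
Share of tested members (horizontal axis, percent) called higher in HCT116 (red, left) and lower in HCT116 (blue, right) for each gene list shown, with the number called at the end of each bar and the number tested in brackets. Dotted lines mark 4.8% and 5.51%, the shares over all tested genes. Keratins and Wnt genes reach furthest to the right and cancer-testis genes furthest to the left. In these and some other lists, members nearly absent from a line could pass the low-count filter only through other libraries. The bars of such lists therefore cannot be set against the dotted lines.

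Matrix and adhesion genes favoured SW480 for integrins and laminins, with 1 higher and 6 lower of 26 tested. Over all tested genes the shares were 4.8% and 5.51%. ITGA6, the integrin α6 chain that binds laminin, had 45.5, 34.2 and 30.99 CPM in HCT116, against 361, 480.3 and 325 CPM in SW480 (log2 fold change -3.40 ± 0.31, adjusted p = 1.09e-07). ITGB5, the β5 chain, had 163, 101 and 184 CPM in HCT116, against 553, 436 and 514 CPM in SW480 (log2 fold change -1.75 ± 0.30, adjusted p = 0.000354). ITGB1, the common β1 chain, was the member that was higher, with 215, 284 and 115 CPM in HCT116, against 47.7, 55.4 and 60.3 CPM in SW480 (log2 fold change 1.91 ± 0.35, adjusted p = 0.000828). Of 25 collagens and collagen enzymes 3 were higher and 2 lower, against the same 4.8% and 5.51%. PLOD2, a lysyl hydroxylase that crosslinks collagen, had 48.4, 45.9 and 44.00 CPM in HCT116, against 0 CPM in all 3 SW480 libraries, at least 377-fold higher (adjusted p = 0.000391). COL9A3 had 79.6, 31.9 and 45.9 CPM in HCT116, against 443, 411 and 548 CPM in SW480 (log2 fold change -3.15 ± 0.33, adjusted p = 7.12e-07). COL18A1, the source of endostatin, had 32.5, 31.2 and 32.4 CPM in HCT116, against 83.8, 138 and 159 CPM in SW480 (log2 fold change -1.99 ± 0.39, adjusted p = 0.00157). COL6A2, with 3 counts in all in SW480, had a ratio of 114 (counting interval 37.3 to 538, adjusted p = 0.0145, up to 0.0654 without SW480 replicate 1 or 3). PLOD1, another lysyl hydroxylase, was higher (log2 fold change 1.69 ± 0.45, adjusted p = 0.0176) but not without any 1 SW480 library (adjusted p up to 0.0695).

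Calcium-binding S100 proteins and annexins gave 2 higher and 5 lower of 19 tested, against 4.8% and 5.51% of all tested genes. S100A2 had 33.1, 14.4 and 31.2 CPM in HCT116, against 569, 524 and 444 CPM in SW480 (log2 fold change -4.29 ± 0.33, adjusted p = 8.41e-09). Its neighbour S100A3 had 2.39, 7.04 and 5.58 CPM in HCT116, against 108, 66.7 and 135 CPM in SW480 (log2 fold change -4.36 ± 0.49, adjusted p = 3.56e-06). S100A11 was lower (log2 fold change -2.29 ± 0.34, adjusted p = 7.3e-05), while S100A14, another gene of this chromosome 1 family, was higher (log2 fold change 2.73 ± 0.54, adjusted p = 0.00177). ANXA1, an anti-inflammatory annexin, had 128, 129.7 and 97.9 CPM in HCT116, against 9.26, 8.52 and 8.63 CPM in SW480 (log2 fold change 3.75 ± 0.38, adjusted p = 4.26e-07). ANXA2, a membrane-binding annexin, was lower (log2 fold change -0.79 ± 0.22, adjusted p = 0.0213), a call lost without HCT116 replicate 3 or SW480 replicate 3 (adjusted p 0.102 and 0.103).

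Targets of PPAR and VDR receptors, which the study's medium is meant to activate, were lower in HCT116 wherever called. Of 19 tested members 8 were lower and 0 higher, against 5.51% and 4.8% of all tested genes, with a median log2 fold change of -1.92. PLIN2, the coat protein of lipid droplets, had 104, 107 and 163 CPM in HCT116, against 839.9, 600.0 and 652 CPM in SW480 (log2 fold change -2.48 ± 0.24, adjusted p = 2.59e-07). CYP24A1, the enzyme that degrades vitamin D, had 8.598, 12.5 and 16.7 CPM in HCT116, against 94.4, 180.0 and 68.9 CPM in SW480 (log2 fold change -3.19 ± 0.36, adjusted p = 1.67e-06). TRPV6, a vitamin D-induced calcium channel, had 0, 0.281 and 1.03 CPM in HCT116, against 83.2, 51.3 and 48.01 CPM in SW480 (log2 fold change -7.20 ± 0.76, adjusted p = 7.62e-07). VDR, the receptor gene itself, was lower too, with 19.6, 31.7 and 26.2 CPM in HCT116, against 94.3, 104 and 145 CPM in SW480 (log2 fold change -2.15 ± 0.41, adjusted p = 0.00108). ACADVL and CPT1A, enzymes of fatty acid oxidation, were lower by smaller amounts (-1.41 and -0.85 on the log2 scale, adjusted p = 0.00265 and 0.00724). The medium of the unsorted cells of each line is not stated, so its part in this list was not tested.

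Xenobiotic and antioxidant genes gave 7 higher and 0 lower of 34 tested, against 4.8% and 5.51% of all tested genes. Their median log2 fold change was -0.05. AKR1B1, aldose reductase, had 42.8, 70.4 and 56.4 CPM in HCT116, against 0, 0.118 and 0 CPM in SW480, a ratio of 1433 with a counting interval of 244 to 53818 (adjusted p = 9.58e-06). ME1 (malic enzyme) had 156, 73.9 and 47.7 CPM in HCT116, against 24.7, 11.1 and 17.7 CPM in SW480 (log2 fold change 2.38 ± 0.52, adjusted p = 0.00367). The metallothionein MT2A had 1983, 2264 and 3140.0 CPM in HCT116, against 1365, 1135 and 1257 CPM in SW480 (log2 fold change 0.97 ± 0.22, adjusted p = 0.0053). NQO1, a quinone reductase, was higher by 1.003 ± 0.23 (adjusted p = 0.00499, and 0.051 without SW480 replicate 2). GCLC, which makes the glutathione precursor, was higher (log2 fold change 1.97 ± 0.47, adjusted p = 0.00787), though not without SW480 replicate 3 (adjusted p = 0.0533). In cholesterol and fatty acid synthesis 3 of 28 were higher and 0 lower, against the same 4.8% and 5.51%. SCD, the stearoyl-CoA desaturase, had 609.7, 781 and 878 CPM in HCT116, against 223, 206 and 302 CPM in SW480 (log2 fold change 1.63 ± 0.22, adjusted p = 1.93e-05). HMGCS1 was higher (log2 fold change 1.47 ± 0.38, adjusted p = 0.0127) but not without HCT116 replicate 2 or SW480 replicate 1 or 3 (adjusted p up to 0.106). Glycolysis and hypoxia genes gave 3 higher and 2 lower of 31, against the same 4.8% and 5.51%. The glucose transporter SLC2A1 had 192, 215 and 207 CPM in HCT116, against 521, 454 and 445 CPM in SW480 (log2 fold change -1.21 ± 0.26, adjusted p = 0.00281). NDRG1, a hypoxia-induced gene, had 333, 314 and 449.5 CPM in HCT116, against 169, 165 and 172 CPM in SW480 (log2 fold change 1.11 ± 0.26, adjusted p = 0.00671). The glycolytic enzymes PFKP (log2 fold change 1.18 ± 0.31, adjusted p = 0.0166) and PGAM1 (log2 fold change 1.10 ± 0.33, adjusted p = 0.0343) were higher. PFKP lost its call without HCT116 replicate 3 or SW480 replicate 1 or 2 (adjusted p up to 0.084), and PGAM1 without any library but SW480 replicate 2 (up to 0.172).

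Proliferation genes gave few calls. Each list of this paragraph is to be read against 4.8% higher and 5.51% lower over all tested genes. Of 32 mitotic genes edgeR called 0, with 2 higher and 3 lower at an unadjusted p under 0.05, and DESeq2 called 1 higher and 2 lower. Of 7 tested clustered protocadherins edgeR called 0, with 0 at an unadjusted p under 0.05 and 1 lower by DESeq2. Of 15 leukocyte, endothelial and fibroblast markers edgeR and DESeq2 called 0, with 2 higher at an unadjusted p under 0.05. Of 32 replication genes 1 was called, E2F1 (log2 fold change -2.63 ± 0.79, adjusted p = 0.0351), whose call was lost without HCT116 replicate 1 or 2 or SW480 replicate 1 or 3 (adjusted p up to 0.149). Among 22 tested G1 genes, 3 were lower and 0 higher, the cyclins CCND2 and CCND1 among them. CCND2 had 0, 0.281 and 0.413 CPM in HCT116, against 49.8, 52.3 and 64.6 CPM in SW480 (log2 fold change -7.88 ± 1.48, adjusted p = 0.00216). CCND1 had 810.1, 739 and 835 CPM in HCT116, against 2047, 1819 and 1736 CPM in SW480 (log2 fold change -1.23 ± 0.16, adjusted p = 1.75e-05). Of 80 ribosomal protein genes 9 were higher and 3 lower, mostly by small amounts, such as RPL30 (log2 fold change 0.86 ± 0.17, adjusted p = 0.00193) and RPL10 (log2 fold change -1.04 ± 0.23, adjusted p = 0.00449). RPL17 (log2 fold change 1.21 ± 0.30, adjusted p = 0.00991) lost its call without HCT116 replicate 1 (adjusted p = 0.054). Histone genes gave 2 higher and 5 lower of 42: HIST1H4C had 1265, 938 and 777 CPM in HCT116, against 386, 312 and 231 CPM in SW480 (log2 fold change 1.68 ± 0.26, adjusted p = 0.000105). HIST2H2BE had 0, 0.141 and 0.207 CPM in HCT116, against 43.97, 38.1 and 35.6 CPM in SW480, a ratio of SW480 to HCT116 of 339 (counting interval 98.2 to 2940.3, adjusted p = 1.68e-05). The variant H2AFZ was higher (log2 fold change 1.10 ± 0.19, adjusted p = 0.000434), and HIST1H2BK (log2 fold change -3.52 ± 0.55, adjusted p = 0.000133) and H2AFJ (log2 fold change -3.43 ± 0.58, adjusted p = 0.000325) were lower. Histone copies are near identical, and most of their mRNAs lack the poly(A) tail that the library primer needs.

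Of 23 tested genes of H3K9 and DNA methylation 3 were higher and 2 lower, against 4.8% and 5.51% of all tested genes. CBX1, the heterochromatin protein HP1β, had 411, 314 and 283 CPM in HCT116, against 104, 135 and 97.7 CPM in SW480 (log2 fold change 1.58 ± 0.29, adjusted p = 0.000758). DNMT1, the maintenance DNA methyltransferase, was higher by 0.87 ± 0.22 (adjusted p = 0.0133), though not without HCT116 replicate 1 or SW480 replicate 2 (adjusted p 0.0608 and 0.0822). SETDB2, a relative of SETDB1, had 0, 0.281 and 1.45 CPM in HCT116, against 20.98, 47.4 and 35.4 CPM in SW480 (log2 fold change -5.94 ± 1.34, adjusted p = 0.00501). PPHLN1, a subunit of the HUSH silencing complex, was lower (log2 fold change -3.44 ± 0.88, adjusted p = 0.0127) but not without HCT116 replicate 1 or 2 (adjusted p 0.0646 and 0.0703). Of 420 tested ZNF genes 13 were higher and 18 lower, shares below those of all tested genes. ZNF264 had 53.5, 48.97 and 33.9 CPM in HCT116, against 0.309, 0 and 0 CPM in SW480, a ratio of 442 (counting interval 153 to 4581, adjusted p = 0.000168), and DESeq2 gave no adjusted p. ZNF91, a repressor of retroelements, had 0.159, 0.281 and 0 CPM in HCT116, against 13.7, 44.4 and 21.7 CPM in SW480, a ratio of SW480 to HCT116 of 181 (counting interval 57.4 to 819, adjusted p = 1e-05). ZNF140 was lower with 0, 0 and 0.826 CPM in HCT116, against 46.6, 40.5 and 59.7 CPM in SW480 (log2 fold change -7.60 ± 1.09, adjusted p = 5.34e-05).

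How far the baseline difference recurred was examined in sorted cells of the same lines, in 12 libraries that do not enter the unsorted means. All 18 libraries were fitted together, so the low-count filter and the estimated spread are shared between the fractions. These cells carried a SETDB1 hairpin and were sorted into KRT-negative and KRT-positive fractions, the keratin being unnamed in the labels. Between lines 1840 genes (12.4%) were called in the KRT-negative fraction (5.37% higher, 7.02% lower) and 1878 (12.6%) in the KRT-positive fraction (5.28% higher, 7.37% lower). Of the 713 genes higher in unsorted HCT116 cells, 336 were also called higher in the KRT-negative and 315 in the KRT-positive fraction, 42.2% and 40.2% of the genes called higher there. Of the 819 lower genes, 480 and 463 were also called lower, 46.0% and 42.3% of the genes called lower there. All 3 fractions shared 230 higher and 373 lower genes. Opposite calls were made for 6 higher and 7 lower genes in the KRT-negative fraction and for 5 of each in the KRT-positive fraction. A contrast of the mean over the 3 fractions, 9 libraries against 9, called 5054 genes (34.0%), 2503 higher (16.9%) and 2551 lower (17.2%). All 9 HCT116 values lay on one side of all 9 SW480 values for 800 genes (5.39%), 332 above (2.24%) and 468 below (3.15%). Of these, 234 and 349 were called in unsorted cells.

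SMAD4, MAGEB2, ZNF518B, KRT5, APCDD1 and ITGA6 were called in the same direction in every fraction. SMAD4 had log2 fold changes of 10.14 and 9.70 in the KRT-negative and KRT-positive fractions, and ITGA6 of -4.30 and -3.75. MDM2 was higher in both (1.78 and 1.55, adjusted p = 0.000586 and 0.00211), and CDKN1A, uncalled in unsorted cells, was higher in both (1.51 and 1.63, adjusted p = 0.00023 and 0.000117). Not all of the 12 largest unsorted changes per direction recurred. NR5A2, SSTR5, SH3BGRL and TNFSF10 were called in neither sorted fraction. TMSB15A and FAM198B were not called in the KRT-positive fraction, nor PLBD1 in the KRT-negative one. The log2 fold change was -0.07 for NR5A2 in the KRT-negative and -0.28 for TMSB15A in the KRT-positive fraction. Other genes differed between unsorted and sorted cells. HLA-B was lower in unsorted HCT116 cells but higher in the sorted HCT116 fractions (1.5 and 1.57, adjusted p = 3.91e-05 and 2.68e-05), and the difference between unsorted and sorted line contrasts was -2.34 on the log2 scale (adjusted p = 2.42e-05). CDH1 was higher in HCT116 in both sorted fractions (2.14 and 0.80, adjusted p = 5.82e-06 and 0.0373; difference -2.24, adjusted p = 0.000296). EPCAM was called higher in the KRT-positive HCT116 cells (0.93, adjusted p = 0.00444; difference -1.36, adjusted p = 0.00632). HOXB9 and DKK1 were not called in either sorted fraction (HOXB9 0.50 and -0.14, DKK1 0.09 and 1.19 on the log2 scale), with differences of -3.32 and 6.50 (adjusted p = 0.000296 and 0.00963). Hairpin and sorting, and possibly medium, go together in these cells and cannot be told apart.

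**Figure D4:**
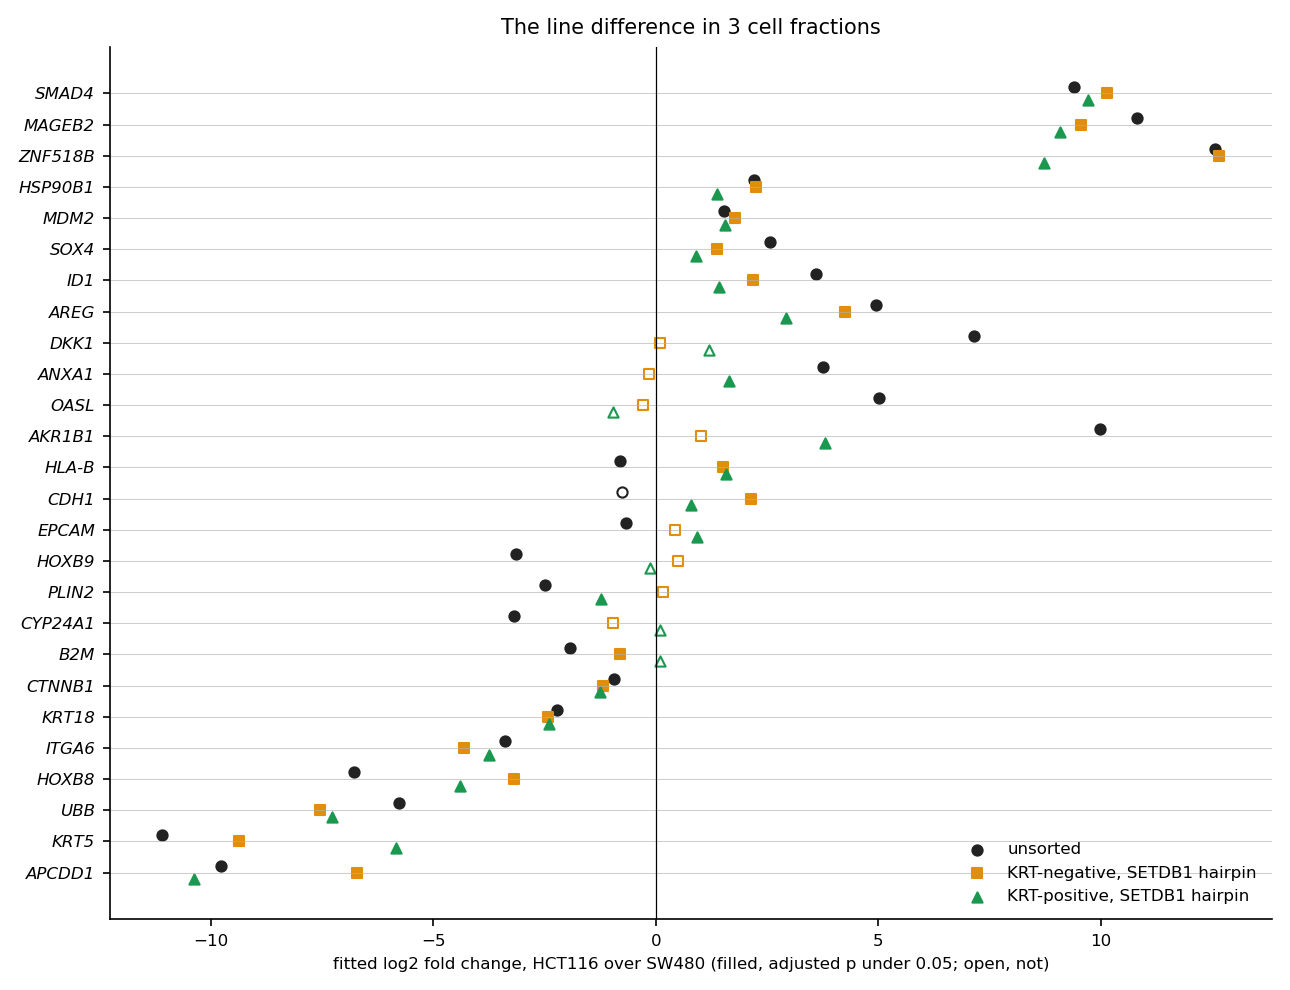
Fitted log2 fold change of HCT116 over SW480 (horizontal axis) for 26 genes in unsorted cells (circles) and in KRT-negative (squares) and KRT-positive (triangles) SETDB1-hairpin cells, filled where adjusted p was under 0.05. Genes at the top and bottom keep their direction in all 3 fractions, while HLA-B, CDH1 and EPCAM lie left of 0 in unsorted cells and right of 0 in both sorted fractions.

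Line differences were uneven along the genome, a summary chosen after the values were seen. Among 10328 genes with at least 10 CPM in the higher line, 6.39% were higher and 7.59% lower in HCT116, with a median log2 fold change of 0.03. Chromosomes 18, 8, 4 and 10 leaned to HCT116, with medians of 0.81, 0.77, 0.68 and 0.54 over 133, 353, 336 and 397 genes and with 17.3%, 16.1%, 13.4% and 10.8% of genes higher. Chromosomes 7, 20, 13 and X leaned to SW480, with medians of -0.56, -0.52, -0.48 and -0.42 over 524, 310, 187 and 341 genes and with 15.1%, 17.7%, 12.8% and 12.9% of genes lower. The sorted fractions gave medians of 0.64 and 0.89 for chromosome 18 and of -0.59 and -0.56 for chromosome 20. Chromosome 18 itself was divided: the 56 genes that start below 30 Mb had a median of -0.21 with 1 higher and 5 lower, and the 73 genes beyond 30 Mb, SMAD4 among them, had a median of 1.54 with 21 higher and 0 lower. Gene starts came from GENCODE 29 on GRCh38. DNA copy number was not measured here, and its part in these medians was not tested.

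**Figure D5:**
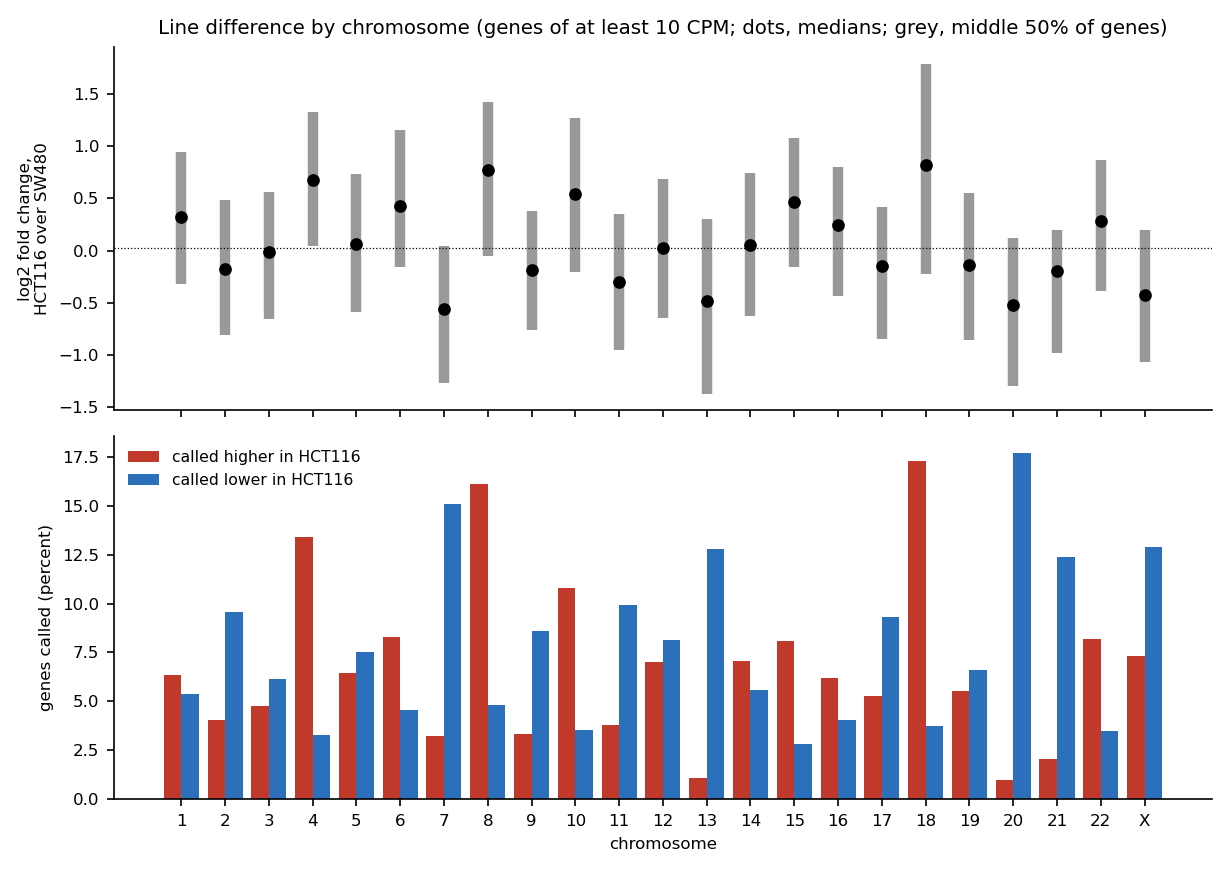
Upper panel, median log2 fold change of HCT116 over SW480 per chromosome (dots) with the middle 50% of genes (grey) and the median of all genes (dotted); lower panel, percent of genes called higher (red) and lower (blue) in HCT116. Chromosomes 4, 8, 10 and 18 lie above the dotted line with more red than blue, and chromosomes 7, 13, 20 and X below it with more blue than red.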

How the data were processed

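Human cell line RNA was made into 3′ tag libraries with a QuantSeq kit, per the labels' protocols. The deposited values are whole-number read counts per gene symbol, 1 file per sample, made by the authors. The submitters' processing notes name Bowtie2, edgeR and the hg19 build, without roles, and the strand setting and annotation are not given in the sources used here. Entries repeating a symbol were summed (286 symbols, 1561 entries), and every column used belonged to a mapped sample.

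All 18 HCT116 and SW480 libraries, in 6 groups of 3, were fitted together with edgeR 4.0.16 in R 4.3.3 (filterByExpr, TMM factors, robust quasi-likelihood fit, 12 residual degrees of freedom between libraries), and line contrasts were taken per fraction and over their mean. Fold changes are HCT116 over SW480, with ± the standard error in log2 fold changes, and adjusted p-values are Benjamini-Hochberg values over all 14851 tested genes. CPM are counts per 1e6 reads after TMM scaling. Alternatives were other size factors, no filter, DESeq2 1.42.0, only the 6 libraries, left-out libraries, a replicate block and GC terms or classes. On simulated counts in this design, the fit of the unsorted contrast recovered 33% of 100 genes changed 4-fold and 4% of 100 changed 2-fold. It made 1 false call over 14433 genes. Both 4-fold and 2-fold changes were thus mostly missed, and an absent call does not show equal expression. Counting intervals (95%, exact Poisson) and bounds cover counting error only.

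Genes were named by a rule: 9 fixed genes, the 12 largest called changes per direction without overlap at 10 CPM or more, and, per list, up to 4 members with the smallest adjusted p and members at 0 counts in a whole line (uncalled ones are not all printed, and some named genes and lists are not reported here). Every further gene of the text was chosen after its values were seen, such as PLK3, BBC3, DKK1, AXIN2, NKD1, ID3, PRAME, KRT13 and KRT23 and all genes of the closing observations. The samples, lists and rule were chosen with earlier results of these data known. Lists are described by counts and medians beside those of all tested genes. GC content used 96.1% of genes at 20 or more CPM with a GENCODE transcript.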

Additional observations from a re-analysis of the deposited data

Results flagged for a closer look

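For 28 of the 182 genes named in the text the line difference itself differed between unsorted and sorted cells, by an edgeR interaction contrast (unsorted line difference minus the mean of the KRT-negative and KRT-positive line differences, chosen after the values were seen; adjusted p under 0.05). Over all tested genes the contrast called 111 higher and 98 lower, 1.41%. Most of the named genes were chosen for their unsorted difference, which is part of the contrast, so their share cannot be set against that figure. Values below are differences of log2 fold changes, HCT116 over SW480.

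The unsorted difference was more positive, or less negative, than the sorted one for AKR1B1 (7.58), GNG11 (7.12), DKK1 (6.50), LTBP1 (6.47), OASL (5.62), S100A3 (4.67), KCNN4 (3.57), SP5 (3.30), ANXA1 (3.002), DSC2 (1.97), ID1 (1.80), SOX4 (1.42), BMP4 (1.37) and SCD (1.29). GNG11, S100A3 and SP5 were lower in HCT116 in unsorted cells and lower still in sorted cells. KCNN4, OASL and BMP4 were called higher in unsorted HCT116 cells and were not called in either sorted fraction.

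The unsorted difference was more negative than the sorted one for HIST2H2BE (-7.47), APOL6 (-7.39), CEACAM1 (-6.87), TRPV6 (-4.99), HOXB9 (-3.32), CYP24A1 (-2.76), HLA-B (-2.34), CDH1 (-2.24), PLIN2 (-1.95), S100A11 (-1.61), B2M (-1.57), COL9A3 (-1.55), EPCAM (-1.36) and HLA-C (-1.34). HOXB9, HLA-B, HLA-C, CDH1 and EPCAM had a negative unsorted value and a positive mean over the sorted fractions. CYP24A1, TRPV6 and PLIN2, targets of VDR or PPAR, belong to this set, and the medium of the unsorted cells is not stated.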

How the results depend on the processing

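The count of 1532 called genes was 2619 with DESeq2, 954 within the AT class (2 HCT116 and 1 SW480 libraries) and 564 within the GC class (1 and 2), where the lone library is assumed to vary like the other groups. With 1 library left out it lay between 952 (without HCT116 replicate 1) and 1224 (without HCT116 replicate 3), with 995 without SW480 replicate 3; without HCT116 replicate 2 the 713 higher calls were 473. DESeq2 gave 2974 against 1840 calls in the KRT-negative and 2995 against 1878 in the KRT-positive fraction. The 215 called list members were 325 with DESeq2, and 141 and 105 within the AT and GC classes. The other totals of calls that were recomputed, over all genes and over the lists, stayed within 1.5 times of the reported ones; the counts of genes at 0 and of groups without overlap were not recomputed. All 177 called genes named in the text kept their direction in every alternative that gave an adjusted p, and 41 of them lost the call when some library was left out. Same-numbered libraries deviated together hardly at all (correlations -0.036, 0.063 and 0.047), so the numbers do not pair them; with a replicate block 690 genes were higher and 795 lower, 1485 in all. For unsorted cells no setting moved the median of all tested genes by over 0.1 on the log2 scale; library totals put it at 0.149 in the KRT-positive fraction. Depth limits genes with few counts, and 3 libraries per line limit the rest.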

Other observations

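Several genes outside all lists separated the lines in each of the 18 libraries, and were picked after their values were seen. UBB, which encodes polyubiquitin B, had 21.02, 26.2 and 3.92 CPM in HCT116, against 861, 936 and 1024 CPM in SW480 (log2 fold change -5.77 ± 0.999, adjusted p = 0.00203). KITLG, the ligand of the KIT receptor, had 652, 489 and 465 CPM in HCT116, against 1.23, 0.946 and 1.66 CPM in SW480 (log2 fold change 8.69 ± 1.26, adjusted p = 0.000368), and TUBB2B, a neuronal β-tubulin, had 5.57, 4.08 and 6.61 CPM in HCT116, against 741, 521 and 625 CPM in SW480 (log2 fold change -6.86 ± 0.63, adjusted p = 4.45e-07). TRIM29, a gene of stratified epithelia, had 0.159, 0.985 and 9.296 CPM in HCT116, against 399, 198 and 329.8 CPM in SW480 (log2 fold change -6.55 ± 1.27, adjusted p = 0.00449). FOXQ1, a forkhead factor and Wnt target, had 0.318, 20.1 and 1.03 CPM in HCT116, against 1113, 749 and 903 CPM in SW480 (log2 fold change -6.97 ± 1.72, adjusted p = 0.0221), a call lost without HCT116 replicate 1 or 3 (adjusted p 0.0735 and 0.0783).

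Chaperones of the endoplasmic reticulum were among them. HSPA5 (BiP) had 4082, 4436 and 5647 CPM in HCT116, against 1848, 1535 and 1508 CPM in SW480 (log2 fold change 1.53 ± 0.20, adjusted p = 1.91e-05), HSP90B1 (GRP94) had 2099, 2116 and 2269 CPM in HCT116, against 419, 449 and 542 CPM in SW480 (log2 fold change 2.20 ± 0.21, adjusted p = 2.57e-07), and PDIA4, a disulfide isomerase, had 741, 664 and 873 CPM in HCT116, against 216, 180.4 and 201 CPM in SW480 (log2 fold change 1.93 ± 0.23, adjusted p = 4.79e-06). HYOU1 was higher by 1.25 ± 0.25 and HERPUD1, which helps degrade misfolded proteins, by 2.35 ± 0.40 (adjusted p = 0.00189 and 0.000338); HERPUD1 overlapped between lines in the 18 libraries. The inducible cytosolic chaperone HSPA1A was lower, with 14.3, 9.85 and 7.02 CPM in HCT116, against 145, 174 and 114 CPM in SW480 (log2 fold change -3.79 ± 0.59, adjusted p = 0.000147). These genes were chosen for their values and are no test of a pathway.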
